A study of Mus musculus with 8 samples.

Results

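Cytochrome P450 genes were examined in the mouse hepatocyte line AML12 and in a derivative transfected with v-erbA. The latter is the oncoprotein of avian erythroblastosis virus and derives from a thyroid hormone receptor by mutation. The probe sets were chosen by symbol. Every probe set whose platform symbol starts with Cyp and a digit was taken, except those of the retinoic acid hydroxylases Cyp26a1 and Cyp26b1 and of the sterol enzymes Cyp51, Cyp27a1 and Cyp7b1. This gave 88 probe sets of 68 genes, out of 45036 probe sets and 18192 named genes. Both lines were studied without treatment and with 1 µM retinoic acid (RA), at 3 h and at 24 h, and each of the 8 combinations was measured on 1 array. The design text states that gene expression with and without v-erbA was to be compared, and that RA-regulated genes differing with v-erbA were sought. Times are those of the titles, although the descriptions of 3 of the 4 samples titled 24 h give 3 h. The labels name 1 v-erbA-transfected line, so v-erbA, the transfection and the origin of that line cannot be told apart, and the v-erbA transcript was not analysed here. Without replicates of any combination, p-values reflect how these 8 arrays scatter, and that scatter may be technical.

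P450 enzymes are haem proteins that insert oxygen into fats, sterols, steroids, drugs and toxins. Most are anchored in the endoplasmic reticulum and receive electrons from P450 reductase and cytochrome b5, and a few mitochondrial members receive them from ferredoxin. Families carry a number and subfamilies a letter. In liver, families 1 to 3 mainly handle foreign compounds, family 4 oxidises the ends of fatty acids and eicosanoids, and families such as 7, 8 and 39 act in bile acid synthesis. Many of these genes are controlled by nuclear receptors and by liver-enriched factors such as HNF4A and C/EBP alpha.

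The RefSeq sequences of the 250 bases before the annotated start are shown for 6 genes that the results turn on. All lie on the minus strand of GRCm38.p6 and are printed in the direction of transcription. They are chr4:115647722-115647971 for Cyp4b1, which was lowest in the v-erbA line relative to AML12, and chr8:45333164-45333413 for Cyp4v3, which was lower on both of its probe sets. The other locations are chr5:145879855-145880104 for Cyp3a11 and chr5:145805875-145806124 for its neighbour Cyp3a44. Cyp2c68 (chr19:39741102-39741351) and Cyp2j5 (chr4:96664120-96664369) were higher in the v-erbA line. Capitals mark any match, on either strand, to AGGTCA (the hexamer of retinoid and thyroid hormone receptor elements), CAAAGTCCA (an HNF4A-type element) or GCGTG (the core of aryl hydrocarbon receptor elements).
Cyp4b1: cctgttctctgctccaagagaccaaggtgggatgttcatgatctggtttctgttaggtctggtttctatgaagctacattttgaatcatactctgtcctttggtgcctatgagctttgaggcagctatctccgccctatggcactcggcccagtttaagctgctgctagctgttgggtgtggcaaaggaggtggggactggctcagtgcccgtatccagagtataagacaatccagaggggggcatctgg
Cyp4v3: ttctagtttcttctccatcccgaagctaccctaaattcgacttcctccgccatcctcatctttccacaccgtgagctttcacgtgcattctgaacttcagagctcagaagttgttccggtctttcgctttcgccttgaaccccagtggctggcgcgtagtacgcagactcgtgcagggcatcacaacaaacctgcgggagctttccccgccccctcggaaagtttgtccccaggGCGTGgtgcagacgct
Cyp3a11: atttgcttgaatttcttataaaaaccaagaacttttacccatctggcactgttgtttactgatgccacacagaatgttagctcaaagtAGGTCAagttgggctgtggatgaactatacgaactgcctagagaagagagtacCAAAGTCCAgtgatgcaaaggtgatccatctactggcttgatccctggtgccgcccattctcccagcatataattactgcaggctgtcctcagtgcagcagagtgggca
Cyp3a44: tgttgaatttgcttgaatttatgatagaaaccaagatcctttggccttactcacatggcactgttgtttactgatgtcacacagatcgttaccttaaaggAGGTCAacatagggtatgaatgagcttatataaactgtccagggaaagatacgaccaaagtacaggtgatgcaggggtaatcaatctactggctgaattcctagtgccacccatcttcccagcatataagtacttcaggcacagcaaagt
Cyp2c68: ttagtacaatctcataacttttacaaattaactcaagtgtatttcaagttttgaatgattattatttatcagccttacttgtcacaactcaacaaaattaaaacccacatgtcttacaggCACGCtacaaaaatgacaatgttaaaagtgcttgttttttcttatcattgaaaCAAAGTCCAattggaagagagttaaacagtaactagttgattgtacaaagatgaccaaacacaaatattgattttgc
Cyp2j5: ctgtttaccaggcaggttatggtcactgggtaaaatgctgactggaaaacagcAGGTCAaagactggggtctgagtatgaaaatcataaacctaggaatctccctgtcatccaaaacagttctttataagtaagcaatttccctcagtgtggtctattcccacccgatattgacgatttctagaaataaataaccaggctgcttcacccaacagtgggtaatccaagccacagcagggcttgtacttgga

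The windows of Cyp3a11 and Cyp3a44 were identical at 72.5% of 265 aligned columns, and both held AGGTCA, 162 and 150 bases before the start. Only the Cyp3a11 window of this pair held CAAAGTCCA, at 109 bases. The Cyp2c68 window held CAAAGTCCA at 77 bases and GCGTG on the opposite strand at 130 bases. The Cyp2j5 window held AGGTCA at 197 bases, the Cyp4v3 window held GCGTG at 16 bases, and no match lay in the Cyp4b1 window. Of the 28 P450 genes tested for expression, 20 had a promoter entry. CAAAGTCCA occurred in 4 of these 20 (Cyp2c68, Cyp2c70, Cyp3a11 and Cyp8b1) and in 0.381% of 27025 promoter windows of this length. AGGTCA occurred in 4 of 20 against 13.8%, and GCGTG in 6 of 20 against 28.2%. Among the 13 matched genes that were lower with v-erbA, the counts were 1, 2 and 3 in the same order. The motifs were picked after the windows had been read, and a match is a string of letters only.

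Signals are linear array units, and the level used below is the median of all values, 73.5 units. Array medians lay between 71.2 and 76.1 units. Testing required a signal over the level on at least 2 of 8 arrays, which kept 35 P450 probe sets of 28 genes. Of all 88 probe sets, 19 exceeded the level on all 8 arrays, 4 on a single array and 49 on none. Cyp2d26 and Cyp4f41-ps were just inside the filter with 2 arrays each. Cyp1b1, Cyp2c54, Cyp2d9 and Cyp2j11 were just outside with 1. Hepatocyte identity was visible outside the P450s: 12 of 17 hepatocyte markers exceeded the level on all 8 arrays, among them Alb (9364 to 11053 units) and Ttr, whereas Asgr1 did so on none. Endothelial Pecam1, Cdh5 and Stab2 and leukocyte Cd68, Ptprc and Clec4f were under the level on every array, whereas endothelial Kdr exceeded it on 7 arrays and macrophage Csf1r and Marco on all 8. Endothelial Flt1 exceeded it on the 4 v-erbA arrays only (78.1 to 228 units, against 2.09 to 12.5 in AML12). In full, 3 of 7 macrophage, 0 of 6 endothelial, 1 of 8 fibroblast and 4 of 4 biliary markers exceeded the level on all 8 arrays, the macrophage marker Cd14 reaching 5265 units.

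P450 transcripts were mostly lower in the v-erbA line. Of 35 probe sets tested, 22 passed the threshold (limma, adjusted p under 0.05), 19 of them lower and 3 higher. All 22 kept their direction in 4 of 4 matched pairs of arrays. The background is high: 52.1% of all 21319 probe sets tested passed, 26.8% higher and 25.3% lower, against 8.57% and 54.3% of the P450 probe sets. Of the 19, Cyp4b1, Cyp2d26 and Cyp4f41-ps exceeded the level in AML12 only and so entered the test through the line in which they were high; 0 P450 probe sets did so in the v-erbA line only. Among the 32 that exceeded the level in both lines, 16 were lower and 3 higher (50% and 9.38%), against 24.9% and 26.3% of all probe sets so restricted. The median log2 difference was -0.33 over the P450 probe sets and 0.02 over all. In 11 P450 probe sets every v-erbA array was below every AML12 array (18.1% of all probe sets), and in 1 every v-erbA array was above (18.8% of all). The 11 include Cyp4b1, Cyp2d26 and Cyp4f41-ps, which entered the test through AML12. Hepatocyte markers moved in the same direction, with 11 of 16 tested lower, 1 higher and a median of -0.88. Their summed signal ranged from 50409 to 69366 units in AML12 and from 40884 to 49345 in the v-erbA line, and its part in the P450 result was not tested. Markers of other cell types also moved with the line. Flt1 (2.64), fibroblast Acta2 (0.68) and Des (0.54) and biliary Krt7 (0.47) were higher with v-erbA, and Krt19 (-0.93), Cd14 (-0.91) and Col1a2 (-0.48) lower. Summed signals in AML12 and the v-erbA line were 177 to 268 and 319.96 to 400.4 units for endothelial markers, 412 to 469 and 405 to 523 for fibroblast, 3447 to 5541 and 2246 to 3074 for macrophage and 4772 to 5953 and 3240 to 4125 for biliary markers. Their part was not tested either. Fewer cells of a type and less RNA per cell cannot be told apart in these bulk samples.

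**Figure D1:**
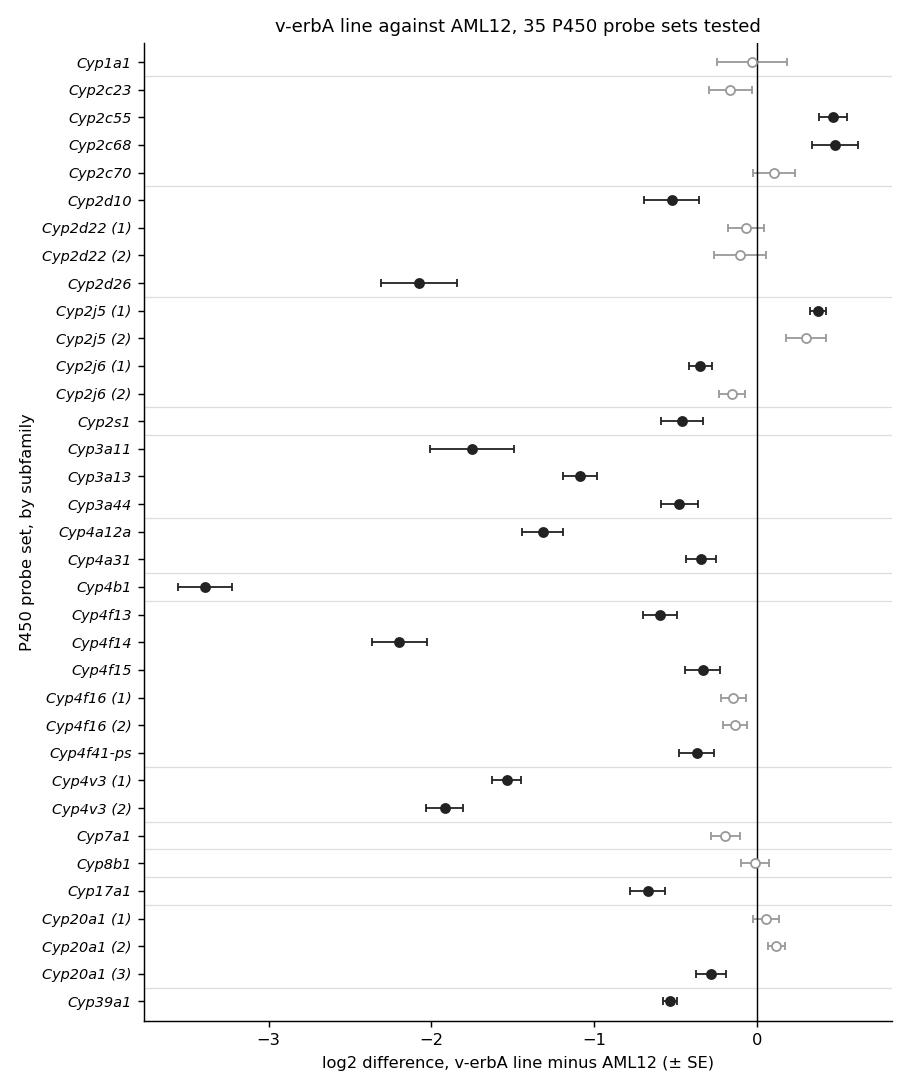
Log2 difference, v-erbA line minus AML12, with its standard error for each of the 35 P450 probe sets tested (vertical axis, ordered by subfamily). Filled points passed the threshold, and 19 of them lie left of 0 and 3 right of it. All 11 probe sets of family 4 lie left of 0, filled or not. Cyp4b1, Cyp2d26 and Cyp4f41-ps exceeded the level in AML12 only.

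Of the 11 tested probe sets of family 4, the fatty acid hydroxylases, 9 were lower with v-erbA and 2 did not pass, with a median of -0.60. Of all probe sets tested, 25.3% were lower. The 9 include Cyp4b1 and Cyp4f41-ps, which exceeded the level in AML12 only. In the sentences that follow, signals are given for untreated 3 h, untreated 24 h, RA 3 h and RA 24 h, in that order. Cyp4b1 (1416194_at), an enzyme that activates furan toxins and oxidises fatty acids, read 444, 748, 419.8 and 356 units in AML12 and 27.0, 30.4, 31.5 and 20.3 in the v-erbA line. All 4 v-erbA arrays were under the level and all 4 AML12 arrays well above it. The log2 difference was -3.39 ± 0.17 (SE, 4 arrays against 4; adjusted p = 4.52e-07), and the means of the pairs at 3 h and 24 h were -3.20 and -3.58. Taken against the level, Cyp4b1 was at least 5.27-fold lower.

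Cyp4f14 (1419559_at), a leukotriene omega-hydroxylase, read 498, 1440, 399 and 750 units in AML12 and 100.01, 227, 109 and 124 in the v-erbA line. The highest v-erbA array was thus below the lowest AML12 array. Its log2 difference was -2.20 ± 0.17 (adjusted p = 6.65e-06), 4.59-fold lower, with -1.90 at 3 h and -2.49 at 24 h. Cyp4v3, a fatty acid omega-hydroxylase whose human counterpart is mutated in Bietti crystalline dystrophy, was measured by a pair of probe sets. One (1417071_s_at) read 655, 1028, 665 and 631 units in AML12 and 162, 209, 175 and 171 in the v-erbA line, a log2 difference of -1.92 ± 0.11 (adjusted p = 1.35e-06). The other (1417070_at) differed by -1.54 ± 0.09 (adjusted p = 1.09e-06), and neither overlapped between lines. Cyp4a12a, an arachidonic acid omega-hydroxylase that is male-biased in mouse liver, read 291, 466, 276 and 450 units in AML12 and 121, 163, 136 and 116 in the v-erbA line. It differed by -1.32 ± 0.13 (adjusted p = 2.61e-05), again with no overlap.

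Other members of family 4 had smaller values. Cyp4f13, the gene directly next to Cyp4f14 with 0 coding genes between them, differed by -0.60 ± 0.10 (adjusted p = 9.63e-04), and its highest v-erbA signal was 142 against a lowest AML12 signal of 145. Cyp4a31 differed by -0.35 on 1440134_at (adjusted p = 0.0102), while its other probe set read 0.904 to 16.5 units and was not tested. Cyp4f15, 4 coding genes from Cyp4f14, differed by -0.33 (adjusted p = 0.0261), a call lost when any of the 4 untreated arrays was left out. The pseudogene Cyp4f41-ps differed by -0.37 (adjusted p = 0.0158) with both group means under the level, a call lost without the AML12 RA 3 h or the v-erbA RA 24 h array. Both Cyp4f16 probe sets had values of -0.15 and -0.14 and did not pass.

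**Figure D2:**
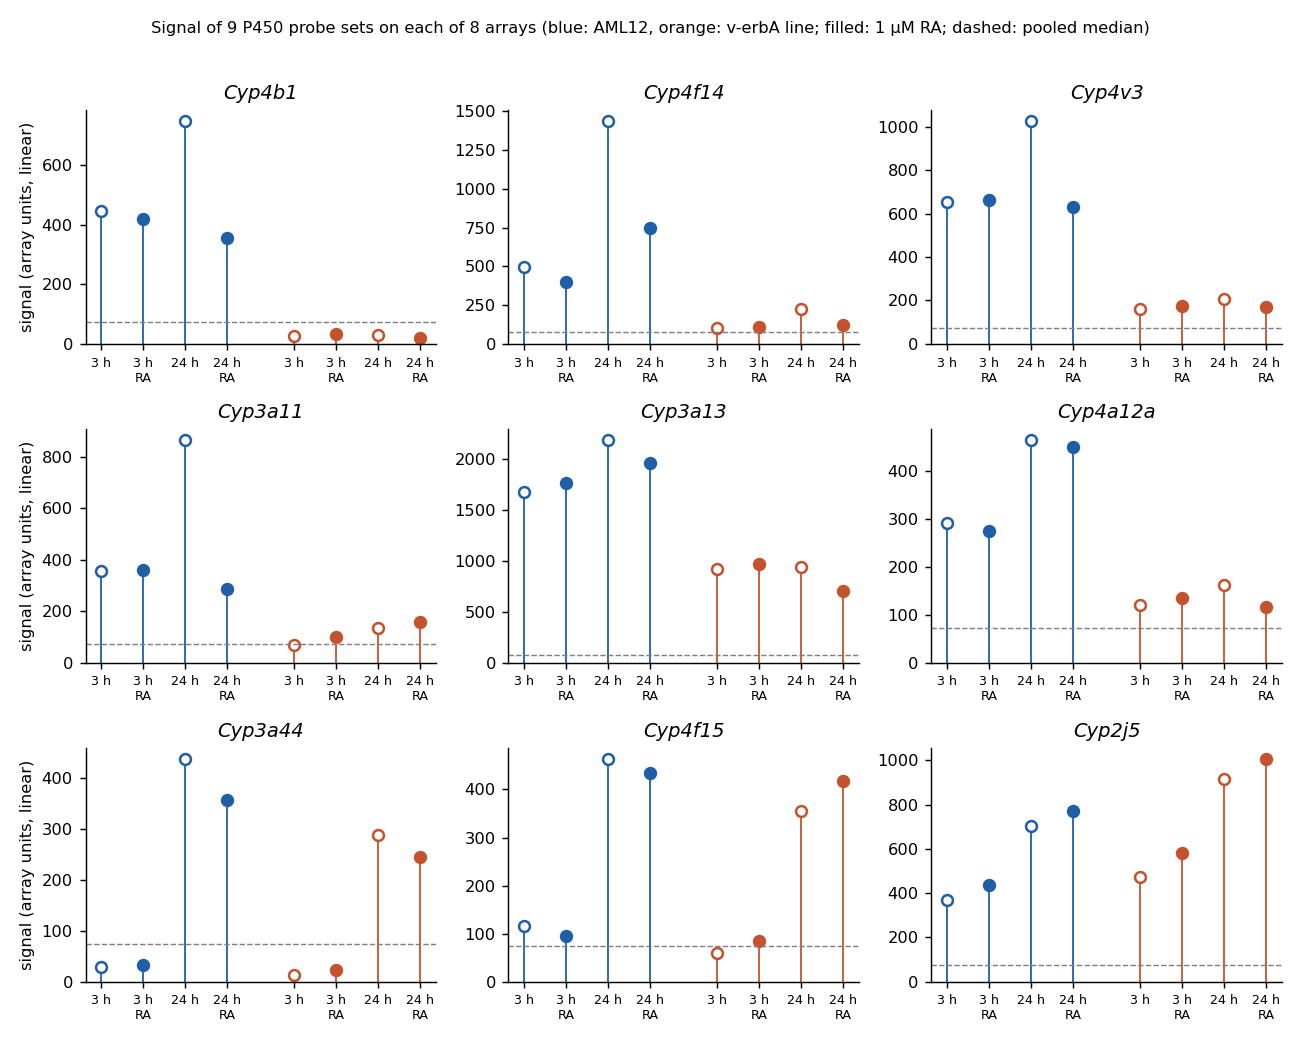
Signal in linear array units (vertical axis, starting at 0) of 9 P450 probe sets on each of the 8 arrays (horizontal axis), with AML12 in blue, the v-erbA line in orange, RA-treated arrays filled and the pooled median dashed. Cyp4b1 read 356 to 748 units in AML12 and 20.3 to 31.5 in the v-erbA line, whereas Cyp3a44 was above the level on the 4 arrays of 24 h only.

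All 3 tested members of subfamily 3A, the main drug-oxidising subfamily of liver, were lower with v-erbA. Of all probe sets tested, 25.3% were lower. Cyp3a11 (1416809_at), the classic target of the pregnane X receptor in mouse liver, read 355, 867, 361 and 285 units in AML12 and 69.0, 135, 101 and 160 in the v-erbA line. The lines did not overlap, although the gap was smallest under RA at 24 h. Its difference was -1.75 ± 0.26 (adjusted p = 3.79e-04), 3.37-fold lower, and the pairs at 24 h differed by -2.52 untreated and -0.76 with RA. Cyp3a13 (1419523_at) read 1680, 2192, 1769 and 1966 units in AML12 and 921, 942, 970 and 709 in the v-erbA line, a difference of -1.09 ± 0.10 (adjusted p = 2.70e-05). Cyp3a44, a female-biased liver enzyme, differed by -0.48 ± 0.11 (adjusted p = 0.00583), and the lines overlapped. All its arrays of 3 h were under the level in both lines, where signals give bounds only. The mean of its pairs at 24 h was -0.54. Members of 3A are close in sequence, and the signal of one probe set may include transcripts of another member, which was not tested.

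Family 2 was mixed, with 4 of 13 probe sets lower, 3 higher and 6 not passing, and a median of -0.11. Of all probe sets tested, 25.3% were lower and 26.8% higher, so these counts lie near the background. The 4 include Cyp2d26, which exceeded the level in AML12 only. In subfamily 2D, a group of drug and amine oxidases, Cyp2d26 read 73.4, 286, 68.1 and 133 units in AML12 and 10.8, 13.7, 5.60 and 26.0 in the v-erbA line. The difference was -2.08 ± 0.23 (adjusted p = 6.71e-05), at least 1.499-fold lower when set against the level, which its AML12 arrays exceeded at 24 h only. Cyp2d10 differed by -0.52 ± 0.17 (adjusted p = 0.0268), a call lost when any of 5 arrays was left out. Both Cyp2d22 probe sets, at -0.07 and -0.11, did not pass. Cyp2s1, an epithelial P450, differed by -0.46 ± 0.13 (adjusted p = 0.0132), a call lost when any of 3 arrays was left out.

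The 3 probe sets that were higher with v-erbA belonged to 2C and 2J. Cyp2c55 read 54.6, 74.1, 54.2 and 64.7 units in AML12 and 85.3, 102, 84.2 and 99.8 in the v-erbA line. It was the P450 probe set whose v-erbA arrays all lay above its AML12 arrays, with a difference of 0.47 ± 0.09 (adjusted p = 0.00151). Cyp2c68 read 222, 292, 182 and 123 units in AML12 and 282, 332, 275 and 244 in the v-erbA line, a difference of 0.48 ± 0.14 (adjusted p = 0.0177). That call was lost when any of 4 arrays was left out. Cyp2c23 and Cyp2c70, the latter an enzyme of muricholic acid synthesis, had values of -0.16 and 0.11 and did not pass.

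Cyp2j5, an arachidonic acid epoxygenase, read 371, 703, 435 and 770 units in AML12 and 474, 914, 582 and 1007 in the v-erbA line (1417531_at). Each v-erbA array exceeded its matched AML12 array, by 0.37 ± 0.05 on average (adjusted p = 1.90e-04). The other Cyp2j5 probe set had a value of 0.30 ± 0.12 (adjusted p = 0.0619) and passed without the AML12 RA 3 h or the untreated v-erbA 3 h array. Cyp2j6, with 1 coding gene between it and Cyp2j5, went the other way on one probe set: 1188, 1962, 1528 and 2002 units in AML12 and 1067, 1396, 1245 and 1442 in the v-erbA line. That difference was -0.35 ± 0.07 (adjusted p = 0.00219), while its other probe set had a value of -0.15 (adjusted p = 0.137) and passed, at -0.24, without the untreated AML12 3 h array.

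The steroid and sterol enzymes differed less in size. Cyp39a1 (1418780_at), an oxysterol hydroxylase of bile acid synthesis, read 2923, 3164, 3045 and 3013 units in AML12 and 2108, 2003, 2247 and 2017 in the v-erbA line. These tightly grouped values gave -0.53 ± 0.04 (adjusted p = 1.10e-05), and the lines did not overlap. Cyp17a1, the steroid hydroxylase and lyase of androgen synthesis, differed by -0.67 ± 0.11 (adjusted p = 6.07e-04). Cyp7a1 (1438743_at), the rate-limiting enzyme of bile acid synthesis, and Cyp8b1, which directs synthesis to cholic acid, had values of -0.20 (adjusted p = 0.0906) and -0.01. Their signals were near the level throughout, 72.1 to 108 and 78.3 to 99.0 units. The other Cyp7a1 probe set (1422100_at) read 4.76 to 18.5 units and was not tested. For the orphan P450 Cyp20a1, 1 of 3 probe sets was lower, by -0.28 (adjusted p = 0.0281), and the others had values of 0.05 and 0.12. That call was lost when any of 4 arrays was left out, and the value of 0.12 passed, at 0.16, without the untreated v-erbA 3 h array. Cyp1a1, the classic aryl hydrocarbon receptor target, had a value of -0.03.

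Time in culture moved the family upward. Between 3 h and 24 h, 18 of 35 probe sets rose and 3 fell (60% together), against 31.4% of all probe sets, 17.2% higher and 14.2% lower. Of these 21 probe sets 18 kept their direction in 4 of 4 matched pairs. The median was 0.37 over the P450 probe sets and 0.02 over all. Of the called probe sets, those of Cyp3a44, Cyp2d26, Cyp2d10 and Cyp2c23 exceeded the level at 24 h only and that of Cyp2s1 at 3 h only, so each entered the test through the time at which it was high. Among the 30 that exceeded the level at both times, 14 rose and 2 fell (46.7% and 6.67%), against 15.6% and 12.6% of all probe sets so restricted. With arrays centred on their medians, the P450 counts were 16 higher and 4 lower, and over all probe sets 43.4% of the calls were higher in place of 54.7%. In 6 P450 probe sets all 4 arrays of 24 h exceeded all 4 of 3 h (9.2% of all), and in 3 all were below (8.59% of all). The 6 include Cyp3a44 and the 3 include Cyp2s1, which each entered the test through the time at which it was high. Of 16 hepatocyte markers 8 rose and 1 fell over the same interval, and their part was not tested. Time and any separate processing of the 3 h and 24 h arrays cannot be told apart.

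**Figure D3:**
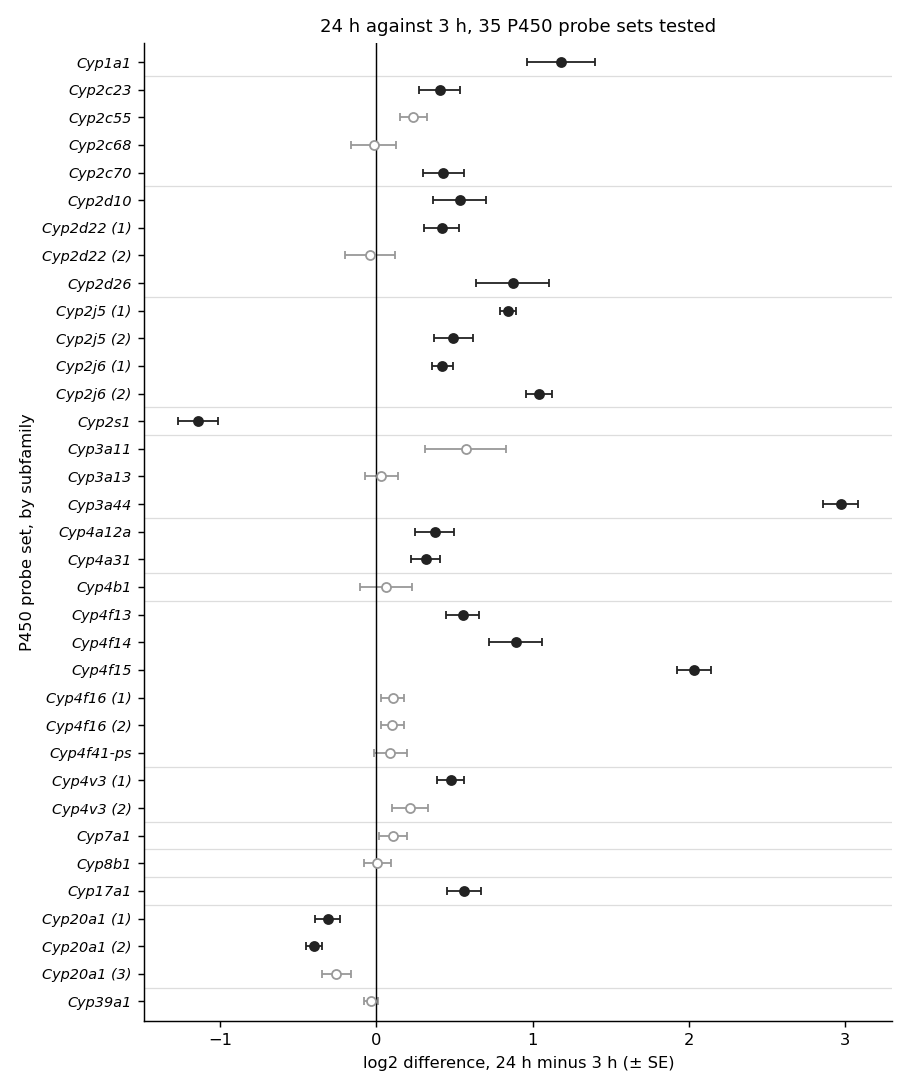
Log2 difference, 24 h minus 3 h, with its standard error for each of the 35 P450 probe sets tested (vertical axis, ordered by subfamily). Filled points passed the threshold; Cyp4f15 lies at 2.03, a measured 4.09-fold, while the points of Cyp3a44 (2.97) and Cyp2s1 (-1.14) have 1 time under the level and are read as at least 3.70-fold higher and at least 1.55-fold lower.

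Cyp3a44 (1426064_at) rose from under the level. It read 29.6 and 32.3 units at 3 h in AML12 and 13.5 and 23.5 in the v-erbA line, each pair untreated and then with RA. At 24 h the signals were 439 and 358 in AML12 and 289 and 246 in the v-erbA line. All 4 arrays of 3 h were under the level, and the rise of 2.97 ± 0.11 on the log2 scale (adjusted p = 5.82e-08) is at least 3.70-fold against it. Its direct neighbour Cyp3a11 had a value of 0.57 ± 0.26 that did not pass (adjusted p = 0.122), but one of 0.93 (adjusted p = 7.79e-04) without the AML12 RA 24 h array.

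Cyp4f15 (1449316_at), a fatty acid hydroxylase gene, read 116 and 94.6 units at 3 h and 464 and 435 at 24 h in AML12. In the v-erbA line it read 59.2 and 84.8 at 3 h and 355 and 418 at 24 h. The times did not overlap in either line, and the rise was 2.03 ± 0.11 (adjusted p = 5.35e-07), 4.09-fold. Cyp4f14 and Cyp4f13 of the same cluster rose by 0.89 ± 0.17 and 0.55 ± 0.10, and both Cyp4f16 probe sets, 2 coding genes from Cyp4f15, had values of 0.10 and did not pass.

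In subfamily 2J all 4 tested probe sets rose, against 17.2% of all probe sets tested. They belong to 2 of its 5 genes, Cyp2j5 and Cyp2j6. Cyp2j6 rose by 1.04 ± 0.08 (adjusted p = 7.07e-06) on 1440691_at, from 353 and 447 to 931 and 981 units in AML12 and from 389 and 424 to 719 and 787 in the v-erbA line. Its other probe set rose by 0.42 ± 0.07 (adjusted p = 0.00133). Cyp2j5 rose by 0.84 ± 0.05 (adjusted p = 1.00e-06) and by 0.49 ± 0.12, the second call being lost when any of 3 v-erbA arrays was left out. Cyp1a1 read 47.5 and 50.4 units at 3 h and 251 and 164 at 24 h in AML12, and 70.0 and 83.0 at 3 h and 111 and 159 at 24 h in the v-erbA line. The times did not overlap, and the rise was 1.18 ± 0.22 (adjusted p = 0.00254).

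Smaller rises passed for Cyp17a1 (0.56), Cyp4v3 on 1 of 2 probe sets (0.47), Cyp2d26 (0.87) and Cyp2d22 on 1 of 2 probe sets (0.42, the other at -0.04). The Cyp2d26 and Cyp2d22 calls were each lost on leaving out any of 3 and 2 arrays. Calls for Cyp2d10 (0.53), Cyp2c70 (0.43), Cyp2c23 (0.40), Cyp4a12a (0.37) and Cyp4a31 (0.31) were lost when any of at least 5 arrays was left out, and those for Cyp2c23 and Cyp4a12a also when arrays were centred on their medians. Cyp2s1 fell, from 130 and 174 units at 3 h to 62.8 and 52.2 at 24 h in AML12 and from 120 and 89.8 to 30.9 and 42.1 in the v-erbA line. Its difference was -1.14 ± 0.13 (adjusted p = 1.05e-04), and all 4 arrays of 24 h were under the level, against which it was at least 1.55-fold lower. Cyp20a1 fell on 2 of 3 probe sets, by 0.40 ± 0.05 and 0.31 ± 0.08, the second call being lost without either RA array of 3 h.

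Lower expression with v-erbA and higher expression at 24 h met in 11 probe sets, those of Cyp17a1, Cyp4v3 (1 of 2), Cyp2j6 (1 of 2), Cyp2d10, Cyp4f13, Cyp4f14, Cyp4a12a, Cyp3a44, Cyp4a31, Cyp2d26 and Cyp4f15. That is 31.4% of the P450 probe sets, against 5.19% of all; both effects come from the same 8 arrays, and Cyp2d26, Cyp2d10 and Cyp3a44 entered the test as described above. The v-erbA effect was also compared between 3 h and 24 h, and 0 of 35 P450 probe sets passed (limma; 6 at an unadjusted p under 0.05, against 1818 of all 21319) against 0.0985% of all. Cyp1a1 had the smallest p, with a difference of -1.03 ± 0.29 (adjusted p = 0.371). Its v-erbA arrays were above the matched AML12 arrays at 3 h, by 0.42 and 0.55, and below at 24 h, with -1.05 untreated and -0.04 with RA. It passed when the AML12 RA 24 h array was left out (-1.43, adjusted p = 0.0152), as did Cyp3a11 without the untreated AML12 array of 24 h (1.11, adjusted p = 0.0302). The next were Cyp2j6 (-0.37), Cyp3a13 (-0.47), Cyp4a12a (-0.57) and Cyp2j5 (0.48, second probe set), none of which passed.

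The untreated AML12 array of 24 h stood out across the family. It held the highest of the 8 signals for 24 of 35 P450 probe sets (68.6%), against 17.1% of all probe sets tested. Among those 24 are the signals of Cyp4b1, Cyp4f14, Cyp4v3 and Cyp3a11 given above. The 24 include Cyp4b1, Cyp2d26 and Cyp4f41-ps, which exceeded the level in AML12 only. They also include Cyp3a44, Cyp2d10 and Cyp2c23, which exceeded it at 24 h only. These entered the test through groups that hold this array, and the share without them was not computed. Hepatocyte markers were also often highest there, 12 of 17 on the same array, Apoa1 with 7093 units there and 199.8 to 2682 on the others. It is a single array, so its condition and that array cannot be told apart. Without it, 20 P450 probe sets differed with v-erbA (3 higher, 17 lower), all among the 22 above, and 16 differed with time (13 higher, 3 lower).

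**Figure D4:**
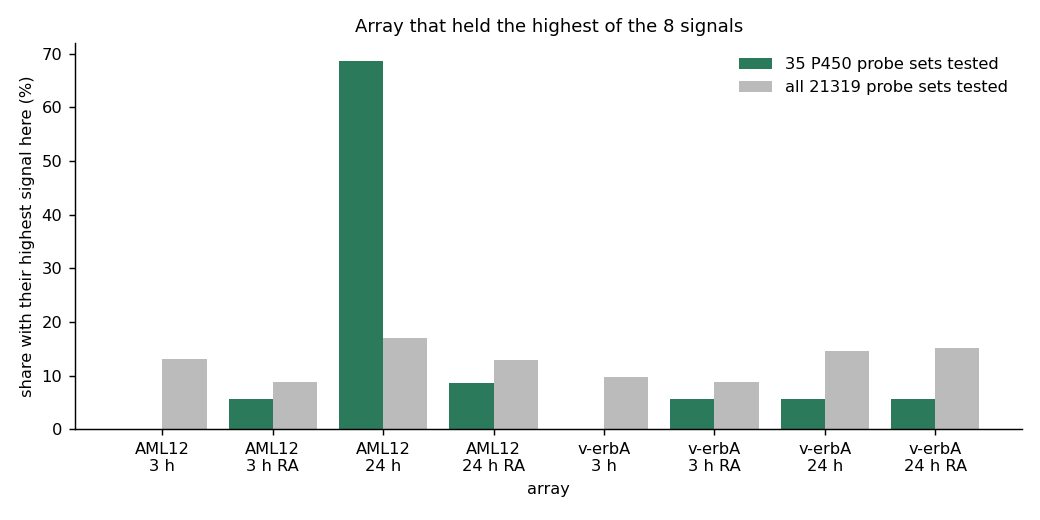
Share of probe sets, in percent (vertical axis), whose highest signal of 8 lay on each array (horizontal axis), for the 35 P450 probe sets tested (green) and all 21319 probe sets tested (grey). The untreated AML12 array of 24 h holds 68.6% of the P450 maxima and 17.1% of all. Some of these P450 probe sets exceeded the level in AML12 only or at 24 h only, and so entered the test through groups that hold this array.

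RA changed no P450 probe set past the threshold. Over both lines and times 0 of 35 passed (limma; 6 at an unadjusted p under 0.05, against 2294 of all 21319), against 1.22% of all, and the median was -0.08. The smallest p belonged to Cyp2j5, which was higher with RA in 4 of 4 pairs by 0.19 ± 0.05 (adjusted p = 0.130). Cyp2c68 had a value of -0.46 ± 0.14 (adjusted p = 0.236) and Cyp4f14 one of -0.47 ± 0.17 (adjusted p = 0.327). Cyp4v3 and Cyp2j6 followed with -0.22 and 0.16. Leaving out the v-erbA RA 3 h array brought Cyp4f14 past the threshold, at -0.69 (adjusted p = 0.0199). In a model with all 2-way interactions 6 P450 probe sets passed, among them Cyp4f14 (adjusted p = 7.26e-05), Cyp2c68 (4.86e-04), Cyp2j6 (0.0179) and Cyp2j5 (0.0430). The share of all probe sets that passed in that model is not given here, so the 6 cannot be set against a background.

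In AML12 alone 0 of 35 passed (limma; 5 unadjusted, against 2111 of all), against 0.371% of all, with Cyp2c68 first at -0.69 ± 0.18 (adjusted p = 0.201). Cyp3a11 had a value of -0.76 ± 0.28 (adjusted p = 0.408), and without the untreated AML12 array of 24 h the value was -0.31. Cyp4b1 had a value of -0.55, which was -0.11 without that array, and -0.997 (adjusted p = 0.0422) without the untreated AML12 array of 3 h. Cyp4f14 and Cyp4v3 had values of -0.61 and -0.35. In the v-erbA line 0 of 35 passed (limma; 3 unadjusted, against 726 of all), against 0.00938% of all. There Cyp17a1 had a value of 0.41 ± 0.14, Cyp4f15 of 0.32, Cyp2j5 of 0.21, Cyp8b1 of -0.20 and Cyp4f16 of -0.17, each with an adjusted p of 1.00.

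Whether RA acted differently in the lines was tested directly, and 0 of 35 P450 probe sets and 0% of all passed (limma; 2 and 394 at an unadjusted p under 0.05). Cyp4f15 was lower with RA in both AML12 pairs (-0.25 and -0.09) and higher in both v-erbA pairs (0.40 and 0.23). That difference of 0.49 ± 0.16 had an adjusted p of 1.00. For Cyp3a11 the difference was 1.09 ± 0.40, from -1.54 in AML12 and 0.22 in the v-erbA line at 24 h, also with an adjusted p of 1.00. Cyp2c68, Cyp17a1 and Cyp4v3 followed, with 0.47, 0.34 and 0.28.

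The pairs of single arrays differed by time. At 24 h in AML12, RA gave a lower signal for 29 of 35 P450 probe sets (82.9%; median -0.25), against 47.5% of all (median 0.01). In the v-erbA line at 24 h it did so for 23 of 35 (65.7%; median -0.14) against 52.9%. At 3 h the counts were 12 of 35 in AML12 (34.3%, against 53.9% of all) and 10 of 35 in the v-erbA line (28.6%, against 48.9%). Hepatocyte markers were lower with RA in AML12 in 14 of 17 cases at 24 h and 7 of 17 at 3 h. The AML12 comparison at 24 h rests on the untreated array that was highest for most of the family.

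At 24 h in AML12, 4 of 38 P450 probe sets above the level on either array were at least 2-fold lower with RA (0.505% of all), and in the v-erbA line 0 of 31 were (0.0788% of all). These single ratios have no replicate check. The 4 were Cyp3a11 (-1.54), Cyp2c68 (-1.12), Cyp4b1 (-1.03) and Cyp2d26 (-1.001). In the v-erbA line the same pairs read 0.22 for Cyp3a11 and -0.41 for Cyp2c68. Tested over both lines, the change of the RA effect from 3 h to 24 h passed for 0 of 35 P450 probe sets (limma; 10 unadjusted, against 1548 of all), against 0.00938% of all. The smallest p was that of Cyp2d22 on 1419040_at, -0.87 ± 0.17 (adjusted p = 0.291), whose RA pairs read 0.06 and 0.09 at 3 h and -0.93 and -0.66 at 24 h in AML12 and the v-erbA line. Without the untreated v-erbA array of 24 h it passed with Cyp4v3 and Cyp4b1, at -1.04, -0.72 and -1.06. Cyp4v3, Cyp4f14, Cyp2c68 and Cyp4b1 came next in the full fit, with -0.53, -0.75, -0.62 and -0.70.

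**Figure D5:**
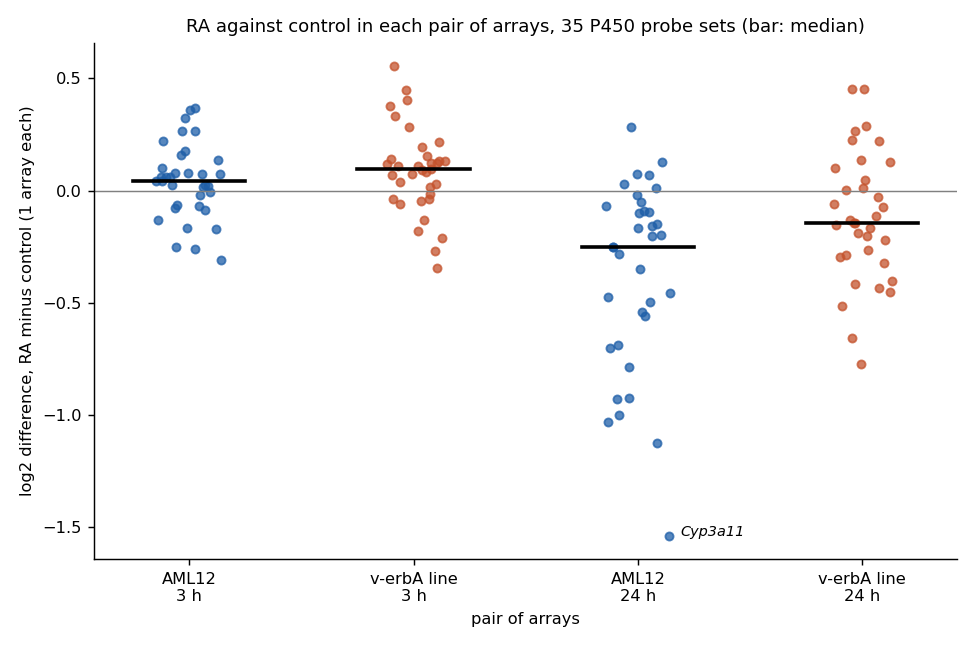
Log2 difference, RA minus control (vertical axis), of each of the 35 P450 probe sets in the 4 pairs of single arrays (horizontal axis), with the median as a bar. The medians are 0.04 and 0.10 at 3 h and -0.25 and -0.14 at 24 h for AML12 and the v-erbA line, and Cyp3a11 is lowest at -1.54 in AML12 at 24 h.

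Genes that serve the P450 enzymes were read alongside, and their counts stand against 25.3% of all probe sets lower and 26.8% higher with v-erbA. Of 9 electron transfer genes tested 6 were lower with v-erbA and 0 higher, with a median of -0.25. Cyb5a, the cytochrome that passes electrons to many P450s, read 7146 to 7555 units in AML12 and 4603 to 5197 in the v-erbA line, a difference of -0.60 ± 0.04 (adjusted p = 1.55e-06). Fdx1, the ferredoxin of mitochondrial P450s, differed by -0.28. Of 11 genes of haem synthesis and breakdown 8 were lower and 1 higher, with a median of -0.30. The synthesis enzymes Alad and Cpox differed by -0.97 and -0.70. Of the breakdown genes, Hmox2, Blvra and Blvrb were also lower, with -0.30, -0.52 and -0.81, and only the haem oxygenase Hmox1 was higher, by 0.31. The epoxide hydrolases Ephx1 and Ephx2, which open the epoxides that P450s form, differed by -0.71 and -0.87, and RA changed 0 genes of these 3 lists past the threshold.

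Of 16 regulators of P450 genes tested 9 were lower with v-erbA and 3 higher (25.3% and 26.8% of all probe sets), with a median of -0.21; Hnf4a is also among the hepatocyte markers. The liver factors Cebpa and Hnf4a differed by -1.05 ± 0.06 and -0.63 ± 0.05, and Rxra, the common partner of nuclear receptors, by -0.91 ± 0.07. Nr0b2, a corepressor of bile acid synthesis genes, differed by -2.07 with v-erbA and rose by 2.10 with RA (adjusted p = 0.00101), while Ppara fell by 0.93 and Hnf4a by 0.27 with RA. Nr1i2, the pregnane X receptor, had a v-erbA value of 0.15 that did not pass, and Nr1i3, the constitutive androstane receptor, was under the level on all 8 arrays. Ahr and Arnt, which form the aryl hydrocarbon receptor complex, were higher with v-erbA by 0.27 each. Of other genes listed for that pathway, Tiparp was higher by 0.86 and Nfe2l2 went the other way, with -0.30. Nqo1, Ahrr and Aldh3a1 were under the level throughout.

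Many P450s of adult liver gave no signal above the level. The 53 probe sets not tested left 40 genes with no tested probe set. None of the 6 probe sets of subfamily 2B, among them those of the constitutive androstane receptor target Cyp2b10, exceeded the level on any array. Cyp2e1, the ethanol-inducible P450, read 37.4 to 50.2 units and Cyp1a2, the partner of Cyp1a1 in liver, 16.7 to 69.9. The steroidogenic genes Cyp11a1, Cyp11b1, Cyp11b2 and Cyp21a1, the vitamin D genes Cyp2r1, Cyp24a1 and Cyp27b1, and the brain cholesterol hydroxylase Cyp46a1 were also under the level on all 8 arrays. Of 11 2C genes 4 were tested, of 8 2D genes 3, of 5 2J genes 2 and of 5 3A genes 3. A signal under the level gives only a bound and does not show that a transcript is absent.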

How the data were processed

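The deposited values are linear signal intensities, 1 for each probe set on each array. Per the labels' protocols, Trizol and RNeasy were used for RNA, and labelling with biotin followed the Affymetrix manual. How the authors summarized and scaled the probes is not given in the sources used here. Of 45037 probe sets, 1 lacked values at 24 h. The platform annotation named 1 gene for 34944 probe sets; 4 P450 probe sets that name several genes were not used. Symbols were checked against RefSeq (GRCm38.p6). Values were transformed to log2(signal + 19.9), the offset being the 20th percentile, so differences of dim genes are understated. Probe sets above 73.5 units on at least 2 of 8 arrays were fitted with limma 3.58.1 in R 4.3.3 (eBayes with trend, Benjamini-Hochberg over 21319 probe sets, threshold 0.05). The model with additive terms for line, treatment and time left 4 residual degrees of freedom, and models with 1 interaction term left 3. The script was tested on simulated data. Where all 4 arrays of the lower group were under the level, folds are bounds. Promoters were aligned with Biopython 1.88, and figures were drawn with matplotlib 3.10.9.

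The members and gene lists were chosen with earlier results of these data known. Named from each fit were the probe sets past the threshold with 1 direction in all 4 matched pairs, up to 12 each way for v-erbA and 8 for time, the 5 smallest p values where none passed, and the brightest probe set of each subfamily. Alternatives changed the offset, filter, scaling, trend, model and probe sets per gene, and left out each array in turn. The number of arrays limits the precision.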

Additional observations from a re-analysis of the deposited data

How the results depend on the processing

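The count of P450 probe sets differing with v-erbA was 22, and 19 to 27 under the other settings (the 19 counted only probe sets above the level in both lines, a setting chosen after seeing the data); for time it was 21, and 16 to 26. Leaving out 1 array at a time gave 18 to 21 for v-erbA and 14 to 22 for time. Over the named probe sets no direction reversed. For v-erbA 261 of 261 values under other settings kept their call or direction. These include the means of the pairs at 3 h and at 24 h, which have no test and kept their direction only. When an array was left out, 154 kept their call and 22 lost it. For time 174 kept and 11 lost it under other settings, and 129 kept and 39 lost it when an array was left out. The RA effect gave 0 calls, but 6 (2 higher, 4 lower) in a model with all 2-way interactions. For that model the share of all probe sets is not given here. Leaving out 1 array gave 0 to 1 calls for the RA effect. For RA in AML12 leaving out 1 array gave 0 to 1, for the change of the RA effect between times 0 to 3, and for the change of the v-erbA effect between times 0 to 1. The arrays concerned are named with the genes, and the cause was not tested. Quantile scaling gave 15 higher and 4 lower for time. The labels give no replicate numbers to pair by; with arrays matched by treatment and time as a block, 22 P450 probe sets differed with v-erbA. Signals under 73.5 units give bounds only, and the authors' background treatment is not known here.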

Other observations

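Among the P450 probe sets left untested as dim, a few had signals that did not overlap between lines or between times. Of all probe sets tested, 18.1% did not overlap with v-erbA lower and 8.59% with 24 h lower. The share among dim probe sets was not computed. Cyp24a1, the vitamin D hydroxylase, read 59.7 to 64.8 units on the 4 arrays of 3 h and 12.2 to 21.0 on the 4 arrays of 24 h (1418867_at), all under the level, so no fold is given; its other probe set read 7.88 to 31.5. Vdr, the receptor that induces Cyp24a1, read 90.5 to 130 units at 3 h and 28.8 to 63.6 at 24 h, where all 4 arrays were under the level. Cyp2j9 read 53.0 to 71.2 units in AML12 and 19.3 to 34.96 in the v-erbA line. Cyp2d9, above the level on the untreated AML12 array of 24 h alone, read 42.9 to 98.1 units in AML12 and 22.2 to 26.9 in the v-erbA line. These were singled out after their values had been seen.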
